A study of Mus musculus with 6 samples.

Results

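The 10 mesothelial markers examined were Upk3b, Upk1b, Msln, Lrrn4, Wt1, Krt19, Bnc1, Gpm6a, Slpi and Muc16, and every array probe whose platform annotation carried one of these symbols was taken. This gave 13 probes for 8 of the genes, out of 45281 probes and 19057 named genes on the array; Wt1 and Muc16 were not analysed here. Expression had been measured on Illumina bead arrays in GFP-positive stromal-vascular cells sorted from white fat of adult AdipoTrak mice, aged 2 to 6 months. In these mice (PPARgamma-tTA;tetO-H2B-GFP) a tetracycline transactivator under control of Pparg switches on a histone fused to GFP, and the animals of both groups carried both transgenes. The 3 untreated arrays came from mice on normal chow and the 3 rosiglitazone arrays from mice whose chow held 0.0075% rosiglitazone, a PPARgamma agonist, for 2 months. Each array stood for a cohort of 3 to 4 mice, and the labels pool inguinal, interscapular and gonadal fat without giving the share of each depot or the sex of the mice.

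The mesothelium is the single layer of flattened, keratin-bearing cells that lines the abdominal cavity and covers the organs inside it, gonadal fat included, whereas subcutaneous fat has no such covering. Upk3b and Upk1b encode uroplakins, membrane proteins best known from the bladder lining, where a tetraspanin such as Upk1b pairs with a single-pass partner such as Upk3b. Msln encodes mesothelin, a surface glycoprotein that binds the mucin Muc16, and Wt1 encodes a transcription factor of mesothelium and of visceral fat progenitors. Krt19, a keratin, and Slpi, a secreted inhibitor of leukocyte proteases, are made by many other epithelia too, so they mark mesothelium less specifically.

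Of the 4 markers with a probe detected on at least 3 of the 6 arrays, 2 have an entry in the RefSeq promoter table (build GRCm38.p6), which holds 250 bases before to 50 bases after each gene's start. They are Upk3b, which had the largest difference between the groups, and Slpi, and they are shown as the only ones of the 4 with an entry. The capitals mark AGGTCA, the 6-base element that nuclear receptors such as PPARgamma bind as a pair. The Upk3b window lies at chr5:136038246-136038545 on the plus strand and the Slpi window at chr2:164356458-164356757 on the minus strand, each written 5′ to 3′ along its gene.
Upk3b: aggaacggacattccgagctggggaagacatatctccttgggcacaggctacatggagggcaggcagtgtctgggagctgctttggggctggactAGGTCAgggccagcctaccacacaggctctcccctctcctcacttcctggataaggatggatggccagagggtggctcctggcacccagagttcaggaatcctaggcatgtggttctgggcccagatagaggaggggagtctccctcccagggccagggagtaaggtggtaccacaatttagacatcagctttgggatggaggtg
Slpi: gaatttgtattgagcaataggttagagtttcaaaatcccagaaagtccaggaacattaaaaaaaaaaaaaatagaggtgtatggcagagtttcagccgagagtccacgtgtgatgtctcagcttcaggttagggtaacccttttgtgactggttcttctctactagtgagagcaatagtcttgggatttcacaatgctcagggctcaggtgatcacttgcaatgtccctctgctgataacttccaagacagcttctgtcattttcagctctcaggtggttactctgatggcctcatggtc
On either strand, AGGTCA occurred 1 time in the Upk3b window, at bases 96 to 101 and so ending 150 bases before the start, and 0 times in the Slpi window. It was present in 16.3% of the 32851 promoter windows in the table. The element repeated after 1 spacer base (AGGTCANAGGTCA, N standing for any base) was in neither window and in 0.0396% of all windows. A match describes the letters and is no evidence of binding.

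On each array, 6 or 7 of the 13 mesothelial probes gave a signal above background. Rosiglitazone replicate 3 stood apart from the other arrays in milk protein and some keratin genes and in markers of subcutaneous fat stroma, so the differences are also given without it. A probe was called detected on an array when the deposited detection p-value was under 0.05, and it was kept for testing when detected on at least 3 of the 6 arrays. Of the 13 probes, 6 were kept, from 4 genes, and 4 were detected on 0 arrays. The number of member probes detected was 7, 6 and 6 in untreated cells and 6, 7 and 6 after rosiglitazone. The kept probes were 3 for Upk3b and 1 each for Upk1b, Krt19 and Slpi.

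Msln was not detected on any array: its intensity ran from 83.6 to 106 units, against array medians of 86.3 to 107 units over all probes, and its lowest detection p was 0.054, on rosiglitazone replicate 2. Lrrn4, a leucine-rich repeat membrane protein gene, was detected on untreated replicate 2 (94.2 units) and rosiglitazone replicate 2 (108.2 units). Bnc1, which encodes the zinc finger protein basonuclin 1, was detected on untreated replicate 1 alone (108.3 units). The detection p-values of these 3 signals ran from 0.034 to 0.048, close to the limit. Gpm6a, a membrane glycoprotein gene known best from neurons, had 3 probes; 1 was detected, on rosiglitazone replicate 3 alone (99.2 units), and the other two on 0 arrays. A second Upk1b probe was not detected on any array, with 76.6 to 97.7 units. Of the markers that define mesothelium, the uroplakins were therefore seen on every array, while Msln, Lrrn4 and Bnc1 stayed at or near background. Absence of signal from a probe is not absence of its transcript.

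**Figure D1:**
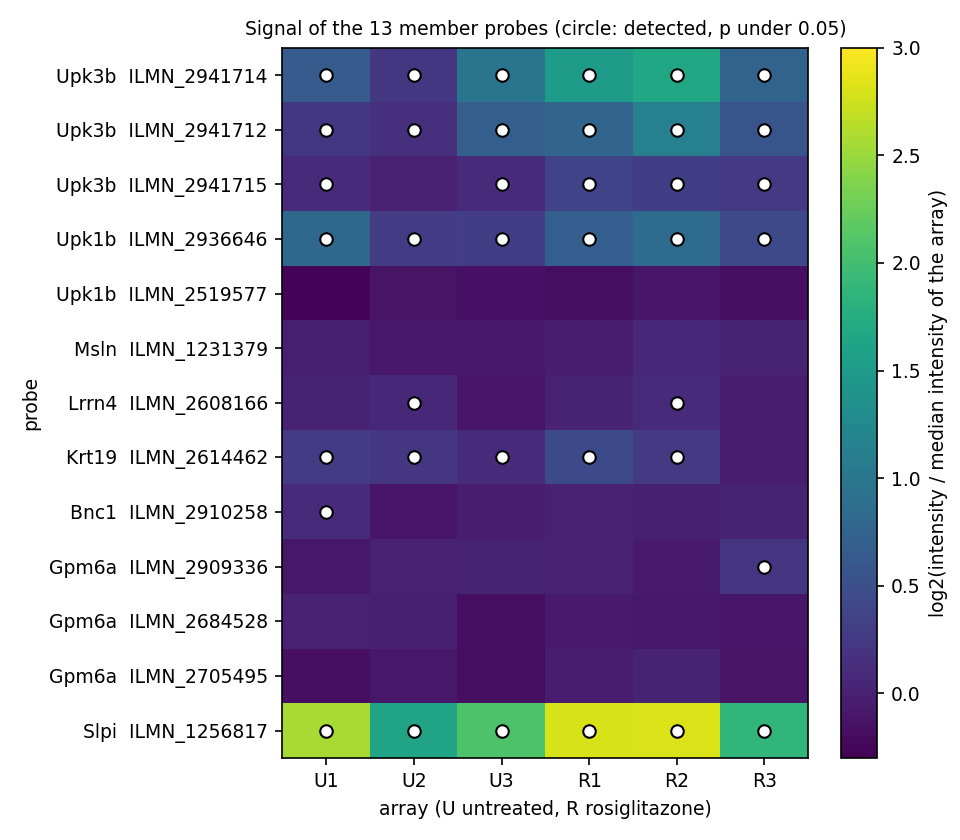
Signal of the 13 member probes (rows) on the 6 arrays (columns; U1 to U3 untreated, R1 to R3 rosiglitazone), as the log2 of intensity over the array's median intensity (colour), with a white circle where the detection p-value was under 0.05. The 4 brightest rows belong to Upk3b, Upk1b and Slpi, and the Msln row holds no circle.

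Upk3b was the marker with the largest difference between the groups. Its brightest probe (ILMN_2941714) read 159.8, 104.9 and 211.6 units in untreated cells, whereas the rosiglitazone arrays gave 254.7, 320.0 and 145.4 units. Rosiglitazone replicates 1 and 2 were the highest of the 6, while rosiglitazone replicate 3 lay within the untreated range. Ranked among all probes of its own array, a measure that needs no normalization, it stood above 79.4%, 75.5% and 82.6% of probes in the untreated group and above 89.6%, 88.9% and 80.4% in the rosiglitazone group. After background correction and quantile normalization the log2 level was 6.07, 5.55 and 6.56 in untreated and 7.88, 7.73 and 6.21 in rosiglitazone cells, a mean of 6.06 ± 0.51 against 7.27 ± 0.92 (SD, n = 3). The log2 difference was 1.21 (95% interval 0.30 to 2.13, SE 0.41), or 2.32-fold higher, and it did not pass in limma across all kept probes (adjusted p = 0.24).

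The other two Upk3b probes had the same arrays on top. The second (ILMN_2941712) was 5.11, 5.23 and 6.08 in untreated and 6.71, 6.96 and 5.84 log2 units in rosiglitazone cells, a difference of 1.03 (95% interval 0.30 to 1.75; adjusted p = 0.20 in limma). Its groups overlapped, again through rosiglitazone replicate 3. The dimmest (ILMN_2941715) was 4.73, 4.49 and 4.68 against 5.77, 5.33 and 5.13 log2 units, a difference of 0.77 (95% interval 0.33 to 1.22; adjusted p = 0.096 in limma). Here every rosiglitazone array exceeded every untreated one, and untreated replicate 2 was not detected. All 3 probes carry the same gene symbol, so they are repeated readings of 1 gene and not separate observations.

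Upk1b, the tetraspanin partner, was less separated. Its detected probe had log2 levels of 6.34, 5.69 and 5.21 without the drug and of 6.53, 6.49 and 5.57 with it, with means of 5.75 ± 0.56 and 6.19 ± 0.54 (SD, n = 3). Rosiglitazone replicates 1 and 2 lay slightly above untreated replicate 1, the highest untreated array, and the groups overlapped through rosiglitazone replicate 3. The difference of 0.45 (95% interval -0.27 to 1.16) did not pass (adjusted p = 0.66 in limma).

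Slpi read 604.4, 274.3 and 455.1 units in untreated cells and 617.3, 711.2 and 314.7 units after rosiglitazone. It stood above 89.5% to 95.3% of the probes on every array, with the lowest rank on rosiglitazone replicate 3. In log2 units it was 8.73, 8.28 and 8.13 in untreated and 9.45, 9.11 and 7.85 in rosiglitazone cells, so the 2 highest arrays and the lowest were all in the rosiglitazone group. The difference was 0.42 (95% interval -0.37 to 1.22; adjusted p = 0.72 in limma), from 8.38 ± 0.31 to 8.80 ± 0.84 (SD, n = 3).

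Krt19, a simple-epithelium keratin gene, had the smallest difference of the 6 probes. Its log2 level was 5.25, 5.50 and 4.73 in untreated and 5.99, 5.18 and 4.40 in rosiglitazone cells, and rosiglitazone replicate 3 was below detection. The difference was 0.03 (95% interval -0.76 to 0.82; adjusted p = 0.99 in limma), an interval that leaves room for a change in either direction.

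**Figure D2:**
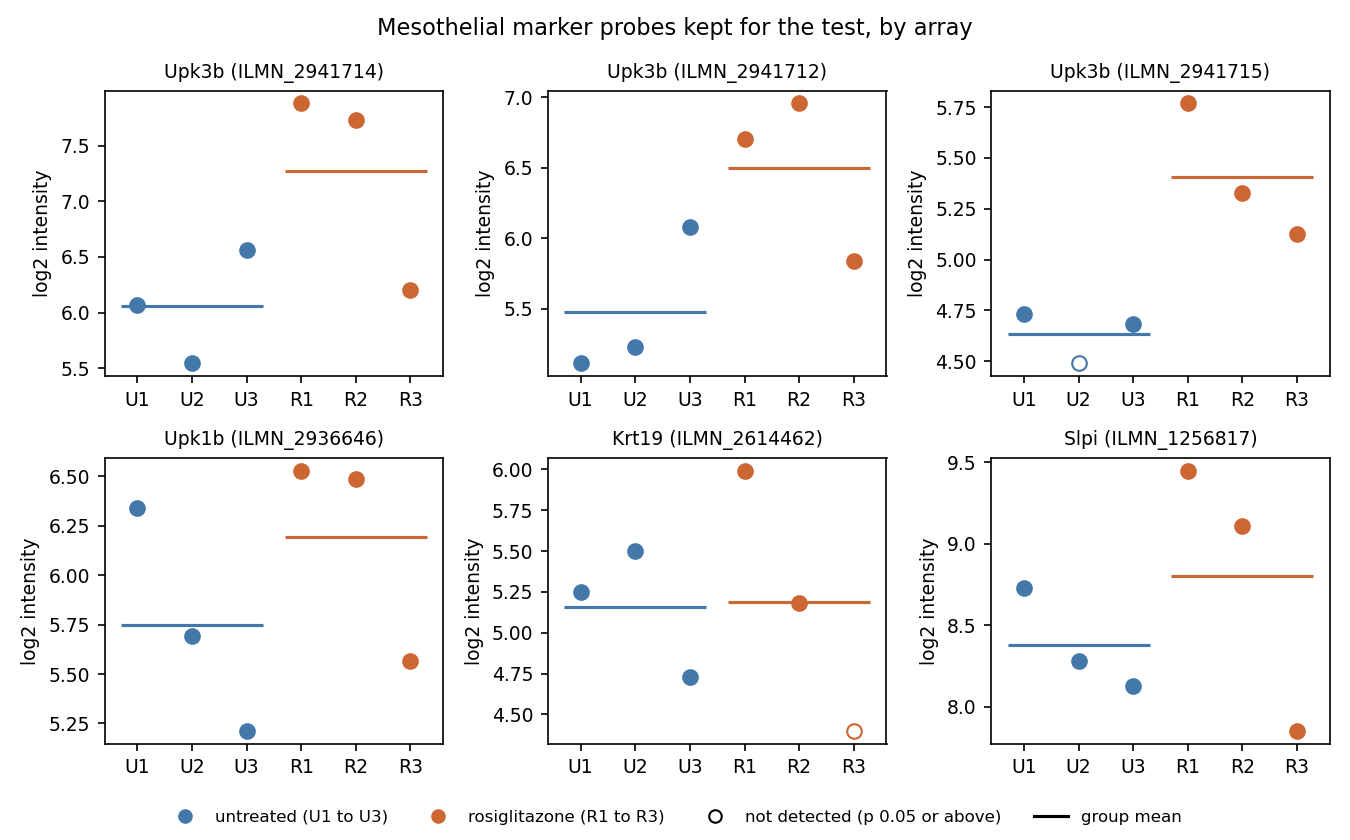
Normalized log2 intensity (y axis) of the 6 kept mesothelial probes on each array (x axis; U1 to U3 untreated in blue, R1 to R3 rosiglitazone in orange), with horizontal lines at the group means (n = 3) and open circles where the probe was not detected. R1 and R2 lie above all untreated points for Upk3b, Upk1b and Slpi, and R3 is the lowest rosiglitazone point in every panel.

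Over the comparison of rosiglitazone with untreated cells, which asks what a PPARgamma agonist changes in these sorted cells, 0 of the 6 kept probes passed an adjusted p of 0.05. Over all 16442 kept probes 2.38% passed, 0.493% as higher and 1.89% as lower. At an unadjusted p under 0.05 the count was 3 of 6, all from Upk3b and all higher, where 5.86% of all kept probes were higher. Groups did not overlap for 1 of 6, the dimmest Upk3b probe, and 9.38% of all kept probes were higher without overlap. All 6 fitted differences were positive, as were 55.7% of those of all kept probes. Their median was 0.61 on the log2 scale against 0.04 over all kept probes, and it was 0.31 without background correction and 0.32 on the authors' normalized table. The only probes tested were those with a signal, and 3 of the 6 report on the same gene. In bulk RNA of this kind, more mesothelial cells among those sorted, more RNA per cell and transcripts from other sorted cells cannot be told apart.

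In unweighted fits, the Upk3b probes passed only without rosiglitazone replicate 3, the treated array where all 3 read lowest. Leaving out that array raised the difference by construction, so the passes below are not separate support. Without that array the 3 Upk3b probes were 3.34-fold, 2.55-fold and 1.86-fold higher, and all 3 passed (adjusted p = 0.0050, 0.028 and 0.0497 in limma), where 0.753% of all kept probes were called higher. The remaining rosiglitazone group then held 2 arrays. Slpi had a log2 difference of 0.91 and Upk1b of 0.75 in that fit, and neither passed (adjusted p = 0.077 and 0.28). Other arrays moved both the opposite way: the Slpi difference was 0.10 without rosiglitazone replicate 1, and the Upk1b difference was 0.18 without untreated replicate 3. With arrays weighted by their quality in the fit, 2 of the 3 Upk3b probes passed (adjusted p = 0.0495 and 0.039), where 1.02% of all kept probes were called higher. These weights were estimated from the same 6 arrays, so that fit is no separate check either. Leaving out any of the other 5 arrays left all 6 probes short of the threshold. The Krt19 difference was -0.38 without rosiglitazone replicate 1 and -0.17 without untreated replicate 3.

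**Figure D3:**
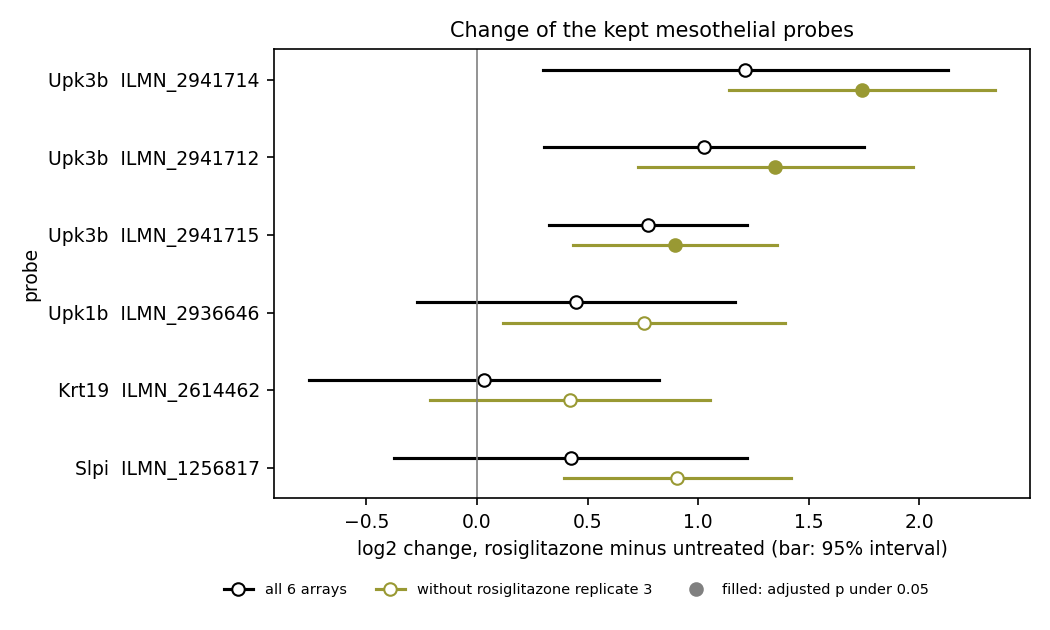
Log2 change of each kept mesothelial probe, rosiglitazone minus untreated (x axis), with 95% intervals, from all 6 arrays (black) and without rosiglitazone replicate 3 (olive); filled points have an adjusted p under 0.05. No point is filled with all 6 arrays, and the 3 Upk3b points are filled without that replicate.

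The same array stood apart in other cell type markers, and their part in the mesothelial values was not tested. For 16 probes of mammary and other epithelium, 8 were detected on rosiglitazone replicate 3 and 1 to 2 on each other array. The 8 were of the milk protein genes Csn2, Csn3 and Wap, of Krt5, Krt14 and Krt17, and of Cldn4. Cldn4 was higher on untreated replicate 1 and rosiglitazone replicate 1, and Cldn3 was detected on rosiglitazone replicates 1 and 2 alone. Epcam, a defining epithelial surface marker, and Cldn7 were detected on 0 arrays. Krt19 and Slpi, which such epithelia can make, had their lowest levels on that array. Genes known to be higher in subcutaneous than in visceral fat stroma (the 3 brightest were Hoxc9, Hoxc10 and Sfrp2) had a mean of 8.50 log2 units there, against 7.71 to 7.82 on the other 5. Markers of visceral fat stroma went both ways. Tcf21, a transcription factor gene, was 8.58 log2 units there and 9.05 to 9.44 elsewhere, and Thbd was also lowest there (10.07). Gata6 (9.81) and Gpc4 (5.80) were highest there, and Hoxa5 (9.30) lay between. The visceral list as a whole, with Thbd, Gata6 and Tcf21 brightest, averaged 8.71 log2 units there and 8.54 to 8.79 elsewhere; 0 of its 5 measured genes and 0 of the 5 subcutaneous ones passed. Endothelial genes, with Esam, Egfl7 and Emcn brightest, averaged 8.55 there and 7.47 to 8.31 elsewhere, and 0 of 7 passed with all arrays in (1 of 7 without it). The mean of the 4 mesothelial genes was 6.01 log2 units on that array, the lowest of the 6, and Slpi and Krt19 were each lowest there. The uroplakins were not lowest there. The brightest Upk3b probe was 6.21 there and 5.55 on untreated replicate 2, and Upk1b was 5.57 there and 5.21 on untreated replicate 3.

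Most macrophage markers were lower after rosiglitazone. Of 12 measured genes 11 passed as lower (Adgre1, Csf1r, C1qa, C1qb, C1qc, Lyz2, Laptm5, Trem2, Cd14, Mrc1 and Tyrobp), with a list median of -2.38 on the log2 scale, where 1.89% of all kept probes were lower. Without the filter on dim probes 5 passed. The exception was the scavenger receptor gene Cd163, with a difference of -0.57 (adjusted p = 0.70 in limma) and overlapping groups. The summed intensity of the macrophage list was 15462 to 34741 units in untreated and 4371 to 9945 units in rosiglitazone cells. Of 5 measured mural genes, Notch3 and Mcam passed as lower (log2 differences of -1.18 and -0.92; adjusted p = 0.041 and 0.019 in limma), and Acta2 and Rgs5, with Notch3 the brightest of the list, did not. Both mural calls were lost in some fits that left out an array or scaled by the median. The 8 measured adipose progenitor genes, with Dcn, Lum and Pdgfra brightest, had 0 past the threshold and a mean of 10.71 to 10.97 log2 units on all 6 arrays. The part of the lower macrophage signal in the mesothelial values was not tested.

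**Figure D4:**
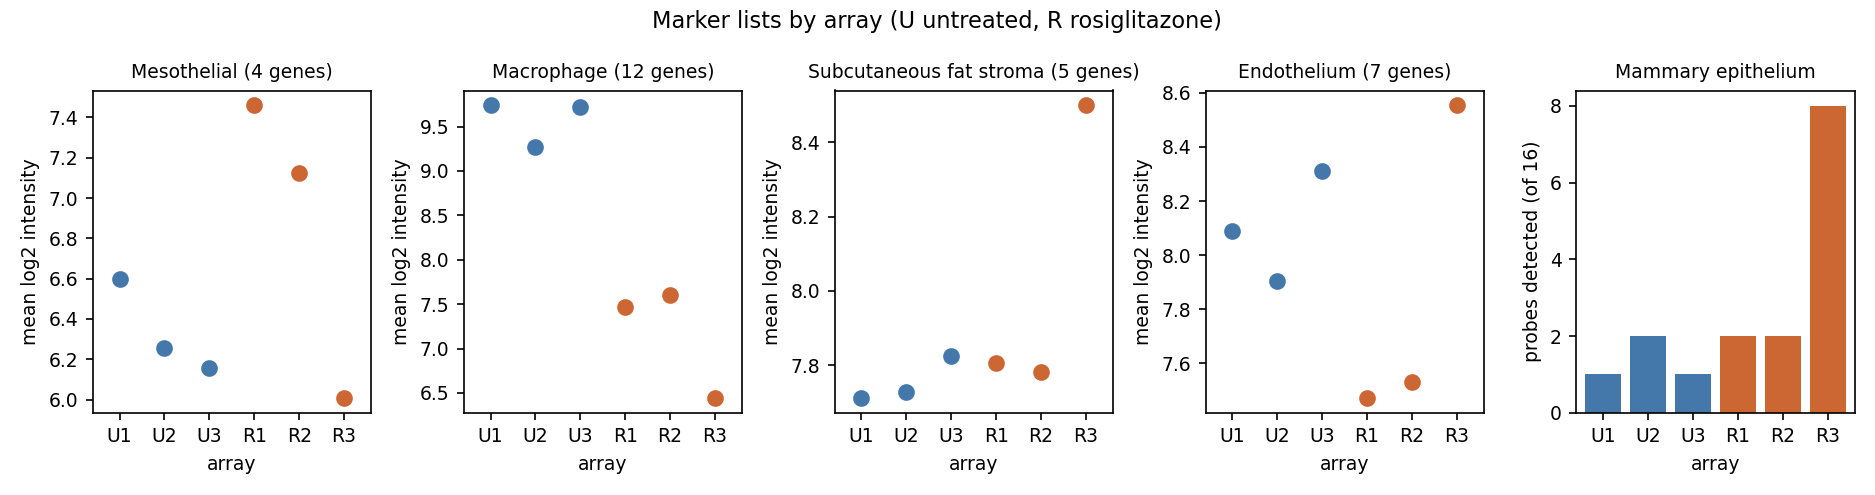
Mean log2 intensity of the kept genes of 4 marker lists (first 4 panels) and the number of mammary epithelium probes detected (last panel, bars from 0) on each array (x axis; U1 to U3 untreated in blue, R1 to R3 rosiglitazone in orange). R3 has the lowest mesothelial mean (6.01), and Slpi and Krt19, but not the uroplakins, were lowest there. It also has the highest subcutaneous mean (8.50) and 8 mammary probes detected.

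Genes tied to mesothelium outside the member list showed no common shift, but most were dim. Of 11 such genes with a probe, 9 were measured; 0 passed, 4 had positive and 5 negative differences, and the median was -0.07 log2 units against 0.04 over all kept probes. Leaving out untreated replicate 1 or rosiglitazone replicate 2 turned that median positive, to 0.10 or 0.08. Krt7, Krt8, Krt18, Cdh1, Nkain4, Rspo1 and Aldh1a2 lay at 4.30 to 5.69 log2 units, and all but Rspo1 were undetected on some array. The lowest detected values per array were 4.65 to 4.79 log2 units, so the median rests mostly on probes near background. The keratin genes Krt18, Krt8 and Krt7 had differences of 0.34, 0.35 and 0.07 (adjusted p = 0.51, 0.71 and 0.94 in limma). For Krt18 the rosiglitazone arrays all lay above the untreated ones, and for Pdpn all below; over all kept probes 9.38% were higher and 7.83% lower without overlap. The tight junction gene Cldn15 had a difference of 0.40, while Cdh1, the gene of the adhesion molecule E-cadherin, had -0.07 and Rspo1, which encodes a secreted Wnt enhancer, -0.09. Aldh1a2, which makes retinoic acid, had -0.40, Nkain4 -0.22 and the mucin-type glycoprotein gene Pdpn -0.31 (adjusted p = 0.52, 0.75 and 0.53). Pdpn is also made by fibroblastic stroma. Calb2, which encodes the mesothelial protein calretinin, was not detected on any array by either of its probes.

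The uroplakins of the bladder lining gave little signal. Of Upk1a, Upk2, Upk3a and Upk3bl, 0 had a kept probe. Upk2 and Upk3a were each detected on 2 arrays, untreated replicate 1 and rosiglitazone replicate 1, and Upk1a and Upk3bl on 0. For the gonads and genital tract, 0 of 7 genes with a probe were kept, and Foxl2, Amh and Adam7 were detected on 0 arrays. Lcn5, Lcn8, Inha and a Cyp11a1 probe were each detected on 1 array, with detection p-values from 0.019 to 0.046. Of the neutrophil, B cell and Schwann cell lists, 2, 1 and 1 genes were measured (S100a8 and S100a9, Cd79b, Mbp) and 0 passed. In the epithelial list Cldn4 was the only gene measured, with a difference of 0.18 (adjusted p = 0.89 in limma).

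The genes whose 6-array pattern was most like that of the brightest Upk3b probe were not mesothelial markers. Among 1093 named probes with an SD over arrays of at least 0.5 log2 units, the 5 highest Pearson correlations belonged to Prps1, an enzyme gene of nucleotide synthesis (r = 0.97), Gramd1b, a cholesterol transfer protein gene (0.97), Cd209b, a lectin gene (0.97), Mmd2 (0.96) and Ptges3l (0.96). Mmd2 had log2 levels of 4.42, 4.21 and 5.65 without the drug and of 6.92, 6.72 and 5.48 with it, so it had the same 2 arrays on top. On untreated replicates 1 and 2 it lay below the lowest detected level of the array (4.69 and 4.79). Cd209b did so too (4.42 and 4.36), so both correlations rest partly on background values. None of the 5 was in the lists above, and none passed in the comparison (lowest adjusted p = 0.094). The other two Upk3b probes had r = 0.94 and 0.88 with the brightest, Slpi 0.78, Upk1b 0.61 and Krt19 0.37. Of the 1093 probes, 8.87% had a higher r than Slpi, 14.6% than Upk1b and 22.9% than Krt19. These values describe 6 arrays that share their treatment groups and array-wide differences.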

How the data were processed

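The labels' protocols describe collagenase digestion of the fat (2 hours, 37 degrees), flow sorting of GFP-positive cells, and biotinylated cRNA. The authors deposited a table of probe intensity per array with no background subtracted, from its values, and a detection p-value per probe beside it. They also deposited intensity normalized between arrays by a method not given in the sources used here; the series table equals it (largest difference 0). Total intensity was 9478690 to 14831300 units per array, and 34.2% to 38.4% of probes were detected; for arrays, their number limits the precision. The number of per-sample columns left unused was 0.

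From the non-normalized intensities, background was corrected by normexp from the detection p-values (offset 16), followed by quantile normalization and log2, in limma 3.58.1 (R 4.3.3). The offset understates changes of dim probes. The 16442 probes detected on at least 3 arrays were fitted with lmFit and eBayes without covariates, with Benjamini-Hochberg adjustment over all of them; intervals come from the same fit. P-values measure the spread between 3 pooled cohorts per group. The brightest kept probe stood for a gene in the other lists.

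Symbols came from the platform annotation: 34885 probes had 1, 18 several and 10378 none. All 13 member probes matched RefSeq by Entrez number, with 0 symbols changed. The code was tested on simulated data. The members and lists were chosen with earlier results of these data known. The rule for naming took all member probes, the kept genes of the further mesothelial list, the 3 brightest kept genes and those past the threshold of each other list, and the 5 genes most like Upk3b. Undetected genes named to describe a list and the genes named under the other observations were chosen after their values were seen. Alternatives changed the background correction and its offset, the scaling between arrays, the deposited table used, the filter on dim probes, the variance estimate or the weights of arrays, added a replicate block, or left out each array.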

Additional observations from a re-analysis of the deposited data

How the results depend on the processing

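The member result, 0 of 6 probes past the threshold, held under every alternative run except 2: 2 passed with array weights, and 0 to 3 when each array was left out, with 3 only without rosiglitazone replicate 3. All member differences stayed positive under the alternatives that kept all 6 arrays and a detection filter; leaving arrays out moved the Krt19 difference between -0.38 and 0.42, with -0.17 without untreated replicate 3. The median member difference, 0.61 with all arrays, was 0.45 to 0.90 when each array was left out, 0.31 without background correction, 0.32 on the authors' normalized table, 0.39 with an offset of 50 and 0.17 over 13 probes without a filter. The number of probes past the threshold over the whole array was 392, and 260 with median scaling, 157 without a filter on dim probes (which tested all 13 member probes, again 0 past the threshold), and 185 to 444 when each array was left out. The lowest counts were 185 without untreated replicate 1 and 224 without untreated replicate 2. The macrophage count was 5 genes without a filter. Mural calls were 0 with median scaling, without either of untreated replicates 1 and 2, and without rosiglitazone replicate 1; they were 1 without background correction, without a filter, without rosiglitazone replicate 2 and on the normalized table the authors deposited. An endothelial gene passed without rosiglitazone replicate 3 and a neutrophil gene with the replicate block. The naming of genes most like Upk3b was not rerun under the alternatives. On the authors' normalized table, used with a constant of 0 added before log2, the brightest Upk3b difference was 0.73 against 1.21, and it was 0.72 without background correction; the dimmest Upk3b probe had 0.26 in both against 0.77. With the replicate number as a block, 475 probes passed and 0 of the 6 member probes. The Upk1b interval became 0.02 to 0.87, from -0.27 to 1.16 (adjusted p = 0.33, from 0.66, in limma). Same-numbered arrays of the groups had correlations of deviations of 0.05, -0.01 and 0.35, and 0.35 was the highest of all pairs. Not every array correlated best with its own number. With 3 arrays per group these values cannot decide whether a number marks a shared cohort, and the labels do not say. Dim probes limit the result: 7 of the 13 member probes were too close to background to test.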

Other observations

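Milk protein genes appeared on a single array, rosiglitazone replicate 3. Csn2, which encodes beta-casein, read 173.0 units there and 77.0 to 103 units on the other 5 arrays, where it was not detected. A Csn3 (kappa-casein) probe read 158.6 units there against 85.0 to 101 units, and Wap, the whey acidic protein gene, 110.9 units against 80.1 to 99.6 units. A second Csn3 probe was also detected there alone (137.8 units). The third Csn3 probe was not detected on any array and read 78.3 units there. The basal keratin genes Krt5 and Krt17 were likewise detected on that array alone, and Krt14 on it and on untreated replicate 2. Epcam and Elf5, further markers of that epithelium, were detected on 0 arrays. Krt15 was detected on untreated replicate 3 alone, Cldn3 on rosiglitazone replicates 1 and 2 alone and Cldn4 on 5 arrays. The labels give no sex or reproductive state for the mice, and what the signal comes from was not tested.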
